A study of Mus musculus with 16 samples.

Results

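The genes described here are those whose symbol in the deposited table begins with Zfp and a digit, Zbtb, Zkscan, Zscan or Znf, with Zfp54 left out. The rule gave 119 genes of 4943 in the table, under 105 symbols, and 220 m6A peaks of 7069. The symbols are partly those of human relatives. In 26 of the 119 genes the number in the symbol is not the number in the gene's own description, and several genes can carry 1 symbol. The label of a zinc-finger transcription factor therefore holds for most but not all of them. The table itself gives a zinc-finger transcription factor family (zf-C2H2, ZBTB or zf-CCCH) to 97 of the 119, and 109 are described as zinc-finger proteins. Over the whole table, 216 genes have such a family and 260 are so described. Many zinc-finger genes are thus outside the rule, and they are counted among the other genes in every comparison below. The term zinc-finger genes is used below for the genes of the rule. Zfp36, Zfp36l1 and Zfp36l2 encode CCCH proteins that bind mRNA, Znfx1 encodes a helicase-like protein, Zfp91 encodes a ubiquitin ligase, and Zbtb8os is named only for its position next to another gene.

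PMs (peritoneal macrophages) had been collected from WT and Adap-/- mice, all on the C57BL/6 background, 3 days after an injection of 3% thioglycolate, which draws macrophages into the peritoneal cavity. They were left untreated (mock) or stimulated in culture with 1 μg/ml LPS (lipopolysaccharide, the TLR4 ligand of Gram-negative bacteria) for 6 h. Adap-/- mice lack ADAP, the adaptor protein encoded by Fyb1, in all cells, and the methods describe the mice as sex-matched littermates. The 4 groups (WT mock, WT LPS, Adap-/- mock and Adap-/- LPS) held 2 replicates each. From every replicate's fragmented RNA came 1 library without enrichment (input) and 1 after immunoprecipitation with an m6A antibody (IP). The labels do not say whether replicates came from separate mice, so p-values measure the spread between these samples, which may be technical.

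C2H2 zinc-finger genes form the largest family of transcription factors in mammals, and each finger recognises a short stretch of DNA. Many carry a KRAB domain that recruits the corepressor TRIM28, while BTB-zinc finger proteins pair through the BTB domain and bind corepressors. CCCH proteins of the ZFP36 family instead bind AU-rich elements of cytokine mRNAs and bring in the decay machinery, which limits inflammation in macrophages. m6A is written on mRNA by the METTL3 complex, often in long internal exons and around the stop codon.

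Reads on peaks summed to between 5728590 and 19030373 per IP library and between 2121313 and 4325961 per input library. Fyb1 had 243 and 257 normalized input CPM (the depth-scaled read count) in WT mock, 349 and 377 in WT LPS, 46.7 and 36.9 in Adap-/- mock, and 41.5 and 35.7 in Adap-/- LPS PMs, in the direction of the labels. Of 8 macrophage markers, 7 were in the table, and their summed input level was between 8719 and 10600 CPM in every input library. None of the 6 markers of B cells, T cells, neutrophils, or mast cells and eosinophils had a peak in the table, and of 6 fibroblast and mesothelium markers only Pdgfra did, at 27.4 to 70.8 CPM. A gene without a peak is not listed, so this says little about such cells. Some IP libraries stood apart on LPS-responsive peaks. On 156 peaks of other genes whose input level was over 32-fold higher with LPS, IP libraries of WT mock replicate 1 and Adap-/- mock replicate 2 reached 16.7% and 15% of the input level of the LPS groups, whereas the other mock IP libraries reached 0.968% and 1.71%. The LPS IP libraries themselves lay between 22.6% and 28%. On 73 peaks over 8-fold lower with LPS, the WT LPS IP libraries held 12.1% and 7.63% of the mock input level, against 4.43% and 4.56% in Adap-/- LPS PMs. The part of this in the IP-to-input ratios below was not tested.

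The peaks of zinc-finger genes lay mostly within coding sequence. Of the 220 peaks, 113 (51.4%) were annotated to the CDS alone, against 31.1% of the 6849 peaks of other genes, which include zinc-finger genes outside the rule. A further 60 (27.3%) covered a stop codon, against 32.9%, and 25 (11.4%) were in the 3'UTR alone, against 16.2%. Start codons were covered by 18 (8.2%), against 13.7%, and no peak lay in the 5'UTR alone, against 2.4%. A zinc-finger gene had a median of 2 peaks and at most 7, the latter in Znfx1 and Zfp646, whereas the median over the table was 1. The median peak length was 175 bases, and 186 in other genes. The genes were spread over 19 chromosomes, with 24 on chromosome 7 and 15 on chromosome 13. Of the latter, 9 carry the symbol Znf728.

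**Figure D1:**
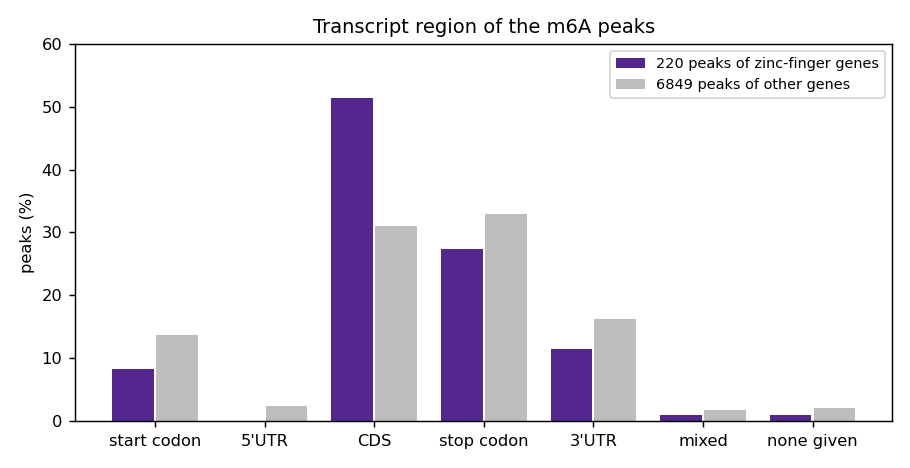
Share of peaks (%) in each annotated transcript region, for the 220 peaks of zinc-finger genes (dark bars) and the 6849 peaks of other genes (grey bars). CDS peaks make up 51.4% of the former and 31.1% of the latter.

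Input reads were counted on peaks, without a stated use of strand, and 20 genes share a peak with a gene outside the rule. Of these, 14 share it with a gene on the opposite strand, and 11 with an opposite-strand lncRNA. Reads of both genes cannot be told apart there. This applies to Znf800, Znf131, Znf384, Znf703, Znf775 and Zscan26, each with all peaks over an unnamed lncRNA on the opposite strand, to Znf652, with 4 of 5 peaks shared with Abi3 or Phospho1, and to Zbtb22 (shared with Tapbp), Zbtb45 (with Trim28) and Zfp82 (with the gene listed as ZNF566). Nearly identical zinc-finger genes can also split or share reads, and 119 genes had 113 distinct sets of peaks.

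For gene input levels, edgeR's quasi-likelihood test was run over all 4742 genes with enough reads, and a gene was called at an adjusted p below 0.05. Of the 119 zinc-finger genes, 115 were tested. The 4 left out were Zfp36l2, Znf827, and a gene listed as Zfp120 and one as Znf431, which share 1 peak. The only peak of Zfp36l2, 22258 bases long and shared with Thada, had 0 reads in all 16 libraries, so nothing can be said of that gene's level. The tested genes were shallow, with a median of 57 input reads per library against 138 over all genes tested. Per kilobase of peak, the highest mean input levels over the 4 groups were those of Znfx1 (1033 CPM per kb), Zfp36 (581), Znf384 (487), Zbtb7a (374) and Znf276 (329).

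Stimulation of WT PMs raised 17 and lowered 23 of the 115 tested genes, which is 34.8% called, whereas 59.2% of all genes tested were called. The share called was 14.8% higher and 20% lower, against 30.3% and 28.9% over all genes. In Adap-/- PMs, LPS raised 13 and lowered 23 (31.3%, against 54.5% over all genes, and 11.3% higher and 20% lower, against 28.5% and 26%). The part of the lower read depth of zinc-finger genes in the shares called with LPS, here and for the role groups below, was not tested. Zinc-finger genes had a median log2 change of −0.21 in WT and −0.15 in Adap-/- PMs, beside −0.03 in both over all genes. Upper-quartile scaling moved the median of all genes to −0.32 and −0.31. The calls of zinc-finger genes moved to 12 higher and 45 lower in WT and 8 and 42 in Adap-/- PMs. The share of all genes called under that scaling is not given, so these counts have no background beside them. The difference between the median of zinc-finger genes and that of all genes was −0.17 in WT under both scalings, and −0.11 and −0.12 in Adap-/- PMs. In bulk RNA, fewer cells of a type and less RNA per cell cannot be told apart. All 13 genes higher in Adap-/- PMs were also called higher in WT PMs, where they made up 76.5% of the 17. Of the lower genes, 18 were called in both genotypes, 78.3% of each list. The same overlap over all genes was not counted, so these shares cannot be called particular to zinc-finger genes.

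Znfx1, which encodes a helicase-like sensor of viral double-stranded RNA, had the largest LPS response. It had 339 and 350 CPM in WT mock, 3208 and 3584 in WT LPS, 460 and 468 in Adap-/- mock, and 3008 and 3256 in Adap-/- LPS PMs. All LPS libraries were far above all mock libraries. The log2 fold change was 3.30 (SE 0.12, adjusted p = 5.03e-13, edgeR) in WT and 2.75 (SE 0.11, adjusted p = 3.94e-12) in Adap-/- PMs. Among the other 6 genes grouped here for functions on RNA or in ubiquitination, Znf830, linked to splicing, was lower with LPS in both genotypes (log2 fold change −0.41 and −0.46). Znf106, an RNA-binding protein, was lower only in the Adap-/- test (−0.35, adjusted p = 0.0123) and had −0.12 in WT (adjusted p = 0.395). Zfp91, counted on the same peaks for 2 gene entries, Znf451, a SUMO ligase, and Znf638 were not called with LPS in either genotype.

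The CCCH genes went in opposite directions. Zfp36 encodes tristetraprolin, which marks TNF and other AU-rich mRNAs for decay. It had 309 and 350 CPM in WT mock, 681 and 755 in WT LPS, 272 and 300 in Adap-/- mock, and 614 and 550 in Adap-/- LPS PMs. The groups did not overlap within a genotype, and the log2 fold change was 1.12 (SE 0.11, adjusted p = 1.18e-07, edgeR) in WT and 1.02 (SE 0.11, adjusted p = 4.11e-07) in Adap-/- PMs. Its relative Zfp36l1, another mRNA decay factor, had 58.6 and 63 CPM in WT mock and 37.6 and 40.5 in WT LPS PMs. In Adap-/- PMs it had 96 and 64.1 CPM without LPS and 60.6 and 45.2 with LPS. It was lower with LPS by −0.64 (SE 0.19, adjusted p = 0.00905) in WT and by −0.58 (SE 0.18, adjusted p = 0.0116) in Adap-/- PMs on the log2 scale. Of 14 genes of the decay machinery that ZFP36 proteins work with, only Cnot2 (of the CCR4-NOT deadenylase) and Dcp1a (of the decapping complex) were in the table, and neither was called with LPS or between genotypes. Their LPS log2 fold changes lay between 0.03 and 0.47 over both genotypes.

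BTB-zinc finger genes were grouped by a symbol that starts with Zbtb. This takes in Zbtb8os and 2 entries of Zbtb9 with identical reads, and leaves out Znf131, which is annotated to the ZBTB family. Of the 23 genes so grouped, 2 rose and 7 fell in WT PMs (8.7% and 30.4%, against 30.3% and 28.9% of all genes, with a median of −0.22 on the log2 scale). In Adap-/- PMs 2 rose and 8 fell (8.7% and 34.8%, against 28.5% and 26% of all genes, with a median of −0.12). The share that fell was near that of all genes in WT PMs. The 2 that rose were Zbtb5 and Zbtb7a in both. Zbtb5, a repressor of the cell cycle inhibitor gene Cdkn1a, had 15.3 and 18 CPM in WT mock, 64.6 and 64.7 in WT LPS, 17.6 and 23.1 in Adap-/- mock, and 52.2 and 47 in Adap-/- LPS PMs. The replicates of WT LPS PMs were the highest of all. Its log2 fold change was 1.95 (SE 0.17, adjusted p = 4.97e-08, edgeR) in WT and 1.29 (SE 0.17, adjusted p = 6.84e-06) in Adap-/- PMs. Zbtb7a, which encodes the haematopoietic regulator LRF, went from 270 and 264 to 365 and 372 CPM in WT and from 290 and 300 to 410 and 424 CPM in Adap-/- PMs, a log2 fold change of 0.47 and 0.50.

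Zbtb14 had the largest fall of the BTB genes in WT PMs, from 32.5 and 31.8 CPM to 10.9 and 10.8 CPM, and in Adap-/- PMs it went from 33.1 and 22.8 to 12.1 and 9.84 CPM. The log2 fold change was −1.56 (SE 0.24, adjusted p = 2.93e-05, edgeR) and −1.33 (SE 0.24, adjusted p = 0.000167). Zbtb38 and Zbtb4, which bind methylated CpG sites, fell by 1.43 and 0.96 on the log2 scale in WT and by 1.80 and 1.15 in Adap-/- PMs. The level of Zbtb38 was low, at 15.1 to 22.6 CPM in mock and 3.95 to 7.65 CPM in LPS libraries, without overlap. Zbtb1, needed for lymphocyte development, fell by 0.95 and 0.50, and Zbtb18, a neuronal repressor at 222 to 320 CPM, fell by 0.29 and 0.25. Zbtb22 and Zbtb42 fell in both genotypes too, and Zbtb45 was called lower in Adap-/- PMs (−0.71, adjusted p = 0.0369) with −0.11 in WT. The reads of Zbtb22 and Zbtb45 are shared as described above.

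Among genes that encode partners of BTB proteins, Cul3, the scaffold of ubiquitin ligases that use BTB adaptors, had 68.8 and 68.4 CPM in WT mock, 105 and 99.4 in WT LPS, 61.1 and 76.9 in Adap-/- mock, and 86.6 and 104 in Adap-/- LPS PMs. It rose by 0.57 and 0.46 on the log2 scale (adjusted p = 0.00156 and 0.00844, edgeR). The corepressor genes Ncor1, Sin3a and Tbl1xr1 were not called with LPS, and none of these 4 genes was called between genotypes.

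Among the 83 remaining Zfp and Znf genes, most of which belong to the C2H2 family, 80 were tested. In WT PMs 13 rose and 13 fell (16.2% each, against 30.3% and 28.9% of all genes), and in Adap-/- PMs 9 rose and 11 fell (11.2% and 13.8%, against 28.5% and 26%). Znf800 had 46.5 and 39.1 CPM in WT mock, 241 and 254 in WT LPS, 61.4 and 72.1 in Adap-/- mock, and 282 and 316 in Adap-/- LPS PMs. Its log2 fold change was 2.53 (SE 0.13, adjusted p = 4.64e-11, edgeR) in WT and 2.16 (SE 0.12, adjusted p = 2.02e-10) in Adap-/- PMs, on peaks that also lie over the antisense lncRNA. Znf281, a factor known from embryonic stem cells, went from 62.4 and 68.4 to 151 and 162 CPM in WT PMs and from 83.2 and 81 to 137 and 125 CPM in Adap-/- PMs. The log2 fold change was 1.26 (SE 0.11) and 0.68 (SE 0.11). Znf821, Znf382 and Znf131 rose by 1.47, 1.31 and 1.24 in WT and by 0.74, 1.01 and 0.96 in Adap-/- PMs. In the latter, the calls of Znf821 and Znf382 were lost with upper-quartile scaling and without either Adap-/- LPS replicate 2 or Adap-/- mock replicate 2, and that of Znf821 also without Adap-/- mock replicate 1. Znf513 rose by 0.86 and 0.94, Znf319 by 0.82 and 0.60, Znf639 by 0.53 and 0.50, and a gene listed as Zfp58 by 0.71 and 0.46. Znf503, a corepressor of the NET family, was called higher in WT PMs (25.1 and 29.6 against 50 and 48.8 CPM, log2 fold change 0.85) and not in Adap-/- PMs (33.1 and 30.1 against 39.8 and 38.6 CPM, log2 fold change 0.31, adjusted p = 0.0962). Zfp62, Znf628 and a gene listed as Znf18 were also called in WT PMs alone.

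Znf652, a repressor known to bind the corepressor CBFA2T3, had 561 and 539 CPM in WT mock, 120 and 138 in WT LPS, 535 and 517 CPM in Adap-/- mock, and 147 and 135 in Adap-/- LPS PMs. The log2 fold change was −2.09 (SE 0.10, adjusted p = 3.37e-11, edgeR) in WT and −1.90 (SE 0.10, adjusted p = 1.16e-10) in Adap-/- PMs, but 4 of its 5 peaks also belong to Abi3 or Phospho1. On the peak annotated to Znf652 alone the values were −1.55 and −1.31. Genes with peaks of their own that fell in both were Znf12 (−1.41 and −0.85), Znf608 (−1.05 and −0.68), Znf219 (−0.95 and −0.62), Zfp64 (−0.66 and −0.72) and Zfp646 (−0.55 and −0.46), together with genes listed as Znf32 (−0.96 and −0.93) and Znf22 (−0.55 and −0.71). Znf608 had 32 and 24.2 CPM in WT mock, 11.8 and 15.5 in WT LPS, 28.6 and 35.2 in Adap-/- mock, and 22.6 and 16.8 in Adap-/- LPS PMs, with no overlap within a genotype. The call of Znf12 in Adap-/- PMs was lost without LPS replicate 1 (9.59 CPM, beside 21.1 in replicate 2) or mock replicate 1. Znf142 (−0.69, on reads shared with Plcd4) and Znf703 (−0.42) were called lower in WT PMs alone, and Znf710 (−0.32) in Adap-/- PMs alone. Zfp82 (−1.79) and 2 genes listed as Znf728 (−1.39 each, on 1 shared peak) were called in WT at levels below 5 CPM. Zfp82 was not called without WT LPS replicate 1, and the Znf728 genes lost their call in 8 of 14 alternatives. In Adap-/- PMs, Znf579 (−1.23, lost without LPS replicate 2) and a gene listed as Zfp809 (−1.45, at 1.09 to 6.07 CPM over that genotype) were called, the latter lost with DESeq2 and without LPS replicate 2 or either mock replicate.

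**Figure D2:**
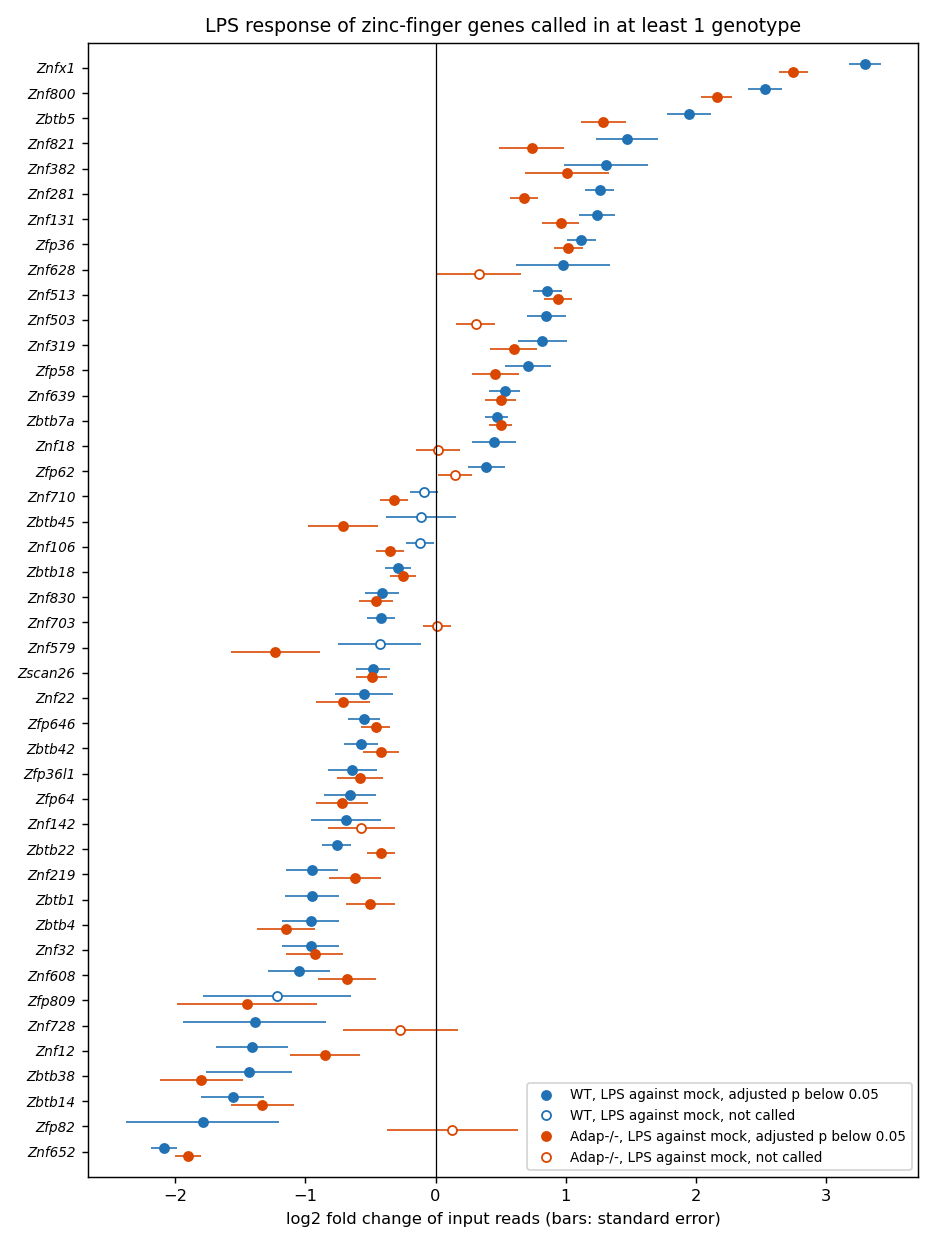
Fitted log2 fold change of input reads, LPS against mock, in WT (blue) and Adap-/- PMs (orange), for zinc-finger genes called in at least 1 genotype. Bars are standard errors, filled points have an adjusted p below 0.05, and open points do not. A pair of Znf728 genes with identical reads is drawn once. Znfx1, Znf800 and Zbtb5 lie highest and Znf652 lowest in WT PMs.

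**Figure D3:**
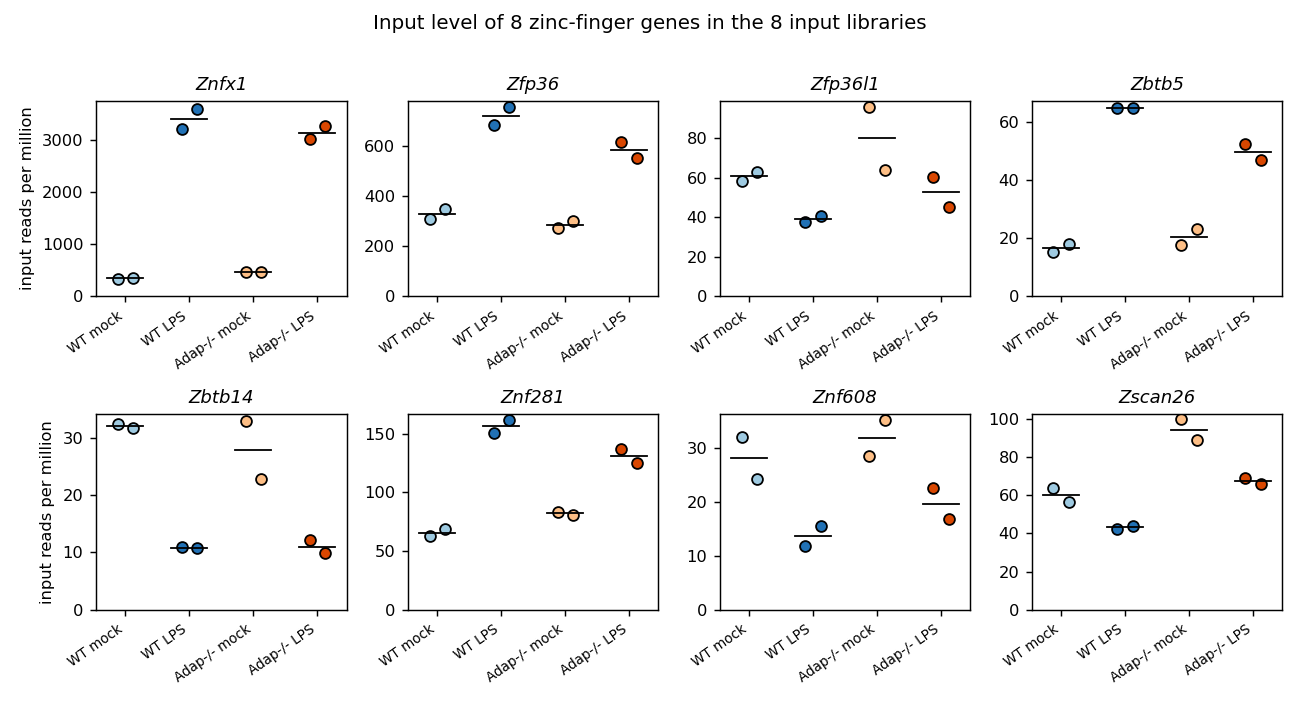
Normalized input level (CPM) of 8 zinc-finger genes in each input library, with 2 points per group and a line at their mean. Znfx1, Zfp36, Zbtb5 and Znf281 were higher with LPS in both genotypes, Zbtb14, Zfp36l1 and Znf608 lower, and Zscan26 was higher in Adap-/- PMs under both conditions.

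SCAN-zinc finger proteins pair through the SCAN domain. Of the 3 tested genes grouped by a Zscan or Zkscan symbol, Zscan26 fell with LPS in both genotypes (log2 fold change −0.48 and −0.49), while Zscan12 and Zscan20 were not called. The gene listed as Znf18, described as having KRAB and SCAN domains, was counted with the remaining genes. Of 12 genes of the KRAB corepressor machinery, 5 were in the table and 4 were tested. Setdb1, the H3K9 methyltransferase that TRIM28 recruits, fell from 23.5 and 22.9 to 8.08 and 13 CPM in WT and from 27 and 26 to 15.2 and 16 CPM in Adap-/- PMs (log2 fold change −1.15 and −0.76, adjusted p = 0.000636 and 0.0076, edgeR). Morc3, a nuclear ATPase with a part in silencing, rose from 59.1 and 60.9 to 167 and 185 CPM in WT and from 63.2 and 73 to 158 and 166 CPM in Adap-/- PMs (1.56 and 1.25). Atf7ip, a partner of SETDB1, was not called with LPS, but was higher in Adap-/- than WT PMs with LPS (37.5 and 26.2 against 20.8 and 20.6 CPM, log2 fold change 0.64, adjusted p = 0.0481). No other of the 4 was called between genotypes. Trim28 has only the peak that it shares with Zbtb45, and its values are the same reads.

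To show the DNA upstream of genes that rose together, the 200 bases before the annotated start were taken from RefSeq (GRCm38.p6, a different build from that of the peaks) for Znfx1, Zfp36 and Zbtb5. These genes rose in both genotypes on peaks of their own, and Znfx1 has a further annotated start that is not shown. Znfx1 lies at chr2:167063016-167063215, Zfp36 at chr7:28379229-28379428 and Zbtb5 at chr4:45012413-45012612, each on the minus strand and written 5′ to 3′. Capitals mark matches, on either strand, to GGGCGG (the GC box), CCAAT (the CCAAT box) or TTCNNNGAA (the GAS motif of STAT factors).
Znfx1: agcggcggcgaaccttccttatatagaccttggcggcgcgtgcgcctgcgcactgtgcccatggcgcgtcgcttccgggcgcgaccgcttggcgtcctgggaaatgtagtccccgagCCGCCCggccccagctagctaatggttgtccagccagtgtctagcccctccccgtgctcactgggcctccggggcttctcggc
Zfp36: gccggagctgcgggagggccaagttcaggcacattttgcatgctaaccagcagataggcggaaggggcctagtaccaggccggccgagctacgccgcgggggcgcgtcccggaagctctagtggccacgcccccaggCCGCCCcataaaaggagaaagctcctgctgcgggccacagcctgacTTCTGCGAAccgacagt
Zbtb5: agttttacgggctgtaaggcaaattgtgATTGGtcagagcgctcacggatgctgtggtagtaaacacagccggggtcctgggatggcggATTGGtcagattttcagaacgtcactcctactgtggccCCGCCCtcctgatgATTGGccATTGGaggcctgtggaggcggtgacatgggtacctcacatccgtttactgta
Of the 13 genes called higher with LPS in both genotypes, 12 matched a RefSeq symbol. All 12 held GGGCGG in these 200 bases of at least 1 annotated start, a match found in 31% of 32851 RefSeq promoters. That share counts promoters rather than genes. No share is given for zinc-finger genes that did not rise, so the match cannot be called particular to genes that rose. CCAAT was found in 5 (Zbtb5, Znf131, Znf281, Znf513 and Znf821) and in 29.3% of all promoters. TTCNNNGAA was found in Zfp36 alone, just before its start, and in 5.49% of all. None of the 12 held the single string searched for the NF-κB motif (1.04% of all) or that for the interferon-stimulated response element (2.27%). Both strings had only their central bases free. Forms of these motifs with other bases at the fixed positions were not searched. The 12 genes therefore cannot be said to lack such sites. TGACGTCA (the cyclic AMP response element, 1.47%) was not found in the 12 either. Genes with several annotated starts had more than 1 chance of a match, and these matches are a description of letters only.

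Between genotypes few zinc-finger genes were called, on a median of 57 input reads per library against 138 over all genes tested. The part of this depth in the share called was not tested. With LPS, 3 of 115 (2.61%) were called higher and 0 lower in Adap-/- PMs, against 15.8% of all genes tested (6.03% higher and 9.78% lower). Without LPS, 6 were called higher and 2 lower (6.96%), against 17.4% of all genes (8.71% higher and 8.65% lower). Log2 fold changes without LPS were above 0 in 79 of 115 zinc-finger genes, against 2408 of 4742 over all genes. Their medians were 0.13 and 0.01. With LPS 71 were above 0, against 2318 over all genes, and the medians were 0.08 and −0.01. The gap between the medians was 0.12 without LPS and 0.08 to 0.10 with LPS under every scaling run. The LPS groups and mock groups used in these comparisons are the same samples as in the LPS comparisons above. Zscan26 was the only gene called higher in Adap-/- PMs under both conditions. It had 63.9 and 56.6 CPM in WT mock, 42.6 and 43.7 in WT LPS, 100 and 89.3 in Adap-/- mock, and 69.1 and 66 in Adap-/- LPS PMs. Its replicates did not overlap between genotypes, and the log2 fold change was 0.65 in both conditions (SE 0.13 with LPS and 0.12 without, adjusted p = 0.00339 and 0.00139, edgeR). Its 3 peaks lie over an opposite-strand lncRNA. The difference kept its call under all 15 alternatives that tested the gene.

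With LPS, Znf703, the other NET family corepressor, had 108 and 104 CPM in WT and 157 and 139 CPM in Adap-/- PMs (log2 fold change 0.49, SE 0.11, adjusted p = 0.00865, edgeR), and it lost the call without Adap-/- LPS replicate 1 or WT LPS replicate 2. Znf445, which protects genomic imprints, had 50 and 43.7 CPM in WT and 62.3 and 67.4 CPM in Adap-/- PMs (0.46, SE 0.14, adjusted p = 0.0393), and lost the call without any 1 of these 4 libraries. On peaks annotated to 1 gene alone, Znf445 was the 1 gene called with LPS.

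Without LPS, Znf800 (0.64), Zfp62 (0.54), Znfx1 (0.43), Znf384 (0.42) and Znf106 (0.32) were called higher besides Zscan26, and Znf775 (−0.90) and Zbtb42 (−0.43) lower. Znfx1 thus started from 460 and 468 CPM in Adap-/- mock against 339 and 350 CPM in WT mock PMs (SE 0.11, adjusted p = 0.0127, edgeR), a call lost without either Adap-/- mock replicate. Zfp62 had 50.1 and 60.6 CPM in WT and 73.2 and 87.1 CPM in Adap-/- PMs, and Zbtb42 had 71.4 and 71.7 against 54.1 and 52.4 CPM. The Znf106 call was lost in 12 of 16 alternatives and that of Znf775 in 10 of 15, each including the replicate block and every left-out library of the 2 groups. Znf384 and Zbtb42 each lost the call in 5, and Znf384 had 0.27 without Adap-/- mock replicate 2. The number called moved with single libraries. Without Adap-/- mock replicate 2, 2 genes were called in place of 8, without Adap-/- mock replicate 1, 5 were called, and without WT mock replicate 2, 4 were called. DESeq2 called Zscan26, Znfx1, Znf800 and Zfp62.

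Whether the LPS response itself differed by genotype was tested directly, and edgeR called 0 of the 115 genes, against 1.64% of all genes (0.358% with a higher and 1.29% with a lower response in Adap-/- PMs). An unadjusted p below 0.05 was found for 8 genes (6.96%, against 12.7% of all genes). The lowest were those of Znf281, with a response smaller by −0.58 (SE 0.16, adjusted p = 0.0943) on the log2 scale in Adap-/- PMs, and of Znfx1, with −0.55 (SE 0.15, adjusted p = 0.0948). DESeq2 called Znfx1 and no other zinc-finger gene. For Zbtb5 the difference was −0.67 (SE 0.24, adjusted p = 0.221), and for Znf503 it was −0.54 (adjusted p = 0.285).

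A peak's IP-to-input ratio measures how strongly the antibody captured it relative to the average peak, not the fraction of methylated molecules. IP and input libraries were scaled together, by their reads on peaks and TMM factors (edgeR's scaling between libraries). Over the 4 groups, peaks of zinc-finger genes had higher ratios than those of other genes. They also had fewer input reads, a median of 44.1 per library against 88.6 over all peaks. The part of this depth in the ratios was not tested. The median log2 ratio was 0.37 over 219 tested peaks and 0.05 over the 6839 other tested peaks. edgeR called 88 higher and 17 lower in IP than in input (40.2% and 7.76%), against 54.7% of all peaks called, 28.4% higher and 26.3% lower. When IP and input libraries were scaled separately, the median of all peaks moved from 0.06 to 0.56. The calls of zinc-finger peaks moved to 165 higher and 6 lower, without a count over all peaks beside them. The median of zinc-finger peaks stayed 0.31 above that of all peaks. The same order was seen within regions: 0.37 against 0.01 in CDS peaks, 0.45 against 0.08 at stop codons, 0.32 against −0.01 in the 3'UTR and 0.35 against 0.00 at start codons. In each of the 8 library pairs the median of zinc-finger peaks was above that of other peaks. The gap was narrowest in WT mock replicate 1, at 0.12 against 0.01. By group, the mean of the pair medians was 0.25 (SD 0.18) in WT mock, 0.44 (SD 0.10) in WT LPS, 0.32 (SD 0.06) in Adap-/- mock and 0.47 (SD 0.14) in Adap-/- LPS PMs (n = 2 each), and the values of the groups overlapped or touched between mock and LPS.

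**Figure D4:**
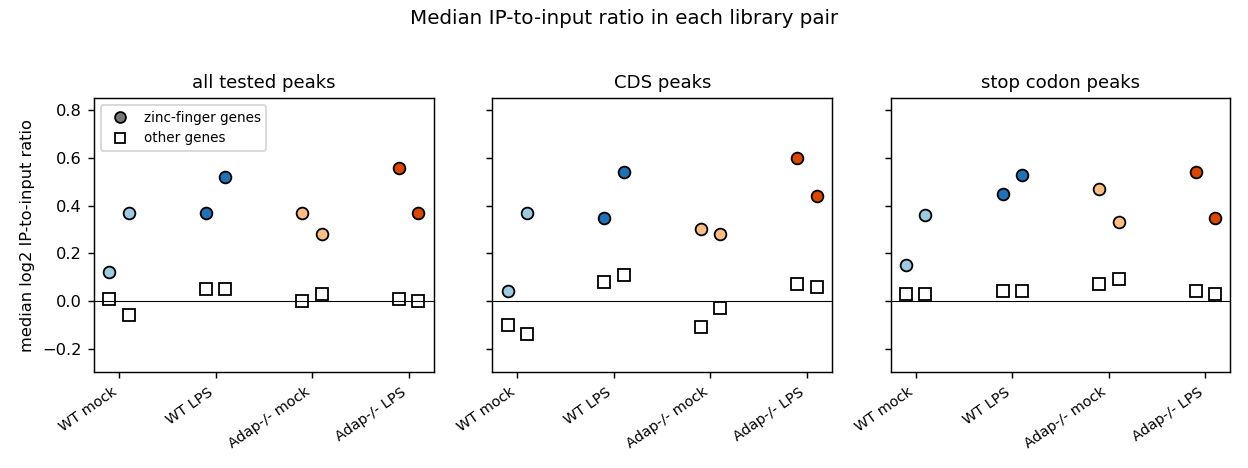
Median log2 IP-to-input ratio of the peaks of zinc-finger genes (circles) and of other genes (squares) in each of the 8 pairs of IP and input libraries, for all tested peaks, CDS peaks and stop codon peaks. Each group has 2 points. The circles lie above the squares of the same pair in every panel, least in WT mock replicate 1.

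By role, the median log2 ratio was 0.41 over 47 peaks of BTB genes and 0.44 over 141 peaks of the other Zfp and Znf genes. It was 1.05 over 7 peaks of SCAN genes, −0.08 over 3 tested peaks of CCCH genes and −0.06 over 21 peaks of the genes with RNA or ubiquitin functions. The stop codon peak of Znf503 (chr14:22034751-22035301 in the table, GRCm39 by the processing notes) had the highest ratio among peaks with a mean of at least 10 input reads. Its ratio was 3.32 and 2.57 in WT mock, 2.29 and 3.44 in WT LPS, 2.87 and 4.26 in Adap-/- mock, and 5.54 and 7.07 in Adap-/- LPS PMs. Over the 4 groups this was a log2 ratio of 1.88 (SE 0.11, adjusted p = 8.72e-07, edgeR). A CDS peak of Zbtb18 (chr1:177275467-177275817) had 1.64 (SE 0.14), with ratios between 1.82 and 4.20. Within Zbtb18 the peaks differed, with 0.91 on another CDS peak, 0.06 at the start codon and −0.21 at the stop codon. The others of the highest 5 were 3'UTR peaks of genes listed as Znf431 (1.69 and 1.46) and of Zfp809 (1.49), whose product silences endogenous retroviruses. The single pairs of these varied widely, for Zfp809 from 1.23 to 4.74. The lowest were a pair of 3'UTR peaks of Znf652 (−1.67 and −1.03, on reads shared with Abi3 and Phospho1), 2 CDS peaks of Zbtb7a (−1.17 and −0.88) and a CDS peak of Zfp91 (−1.07). The stop codon peak of Zfp36 (chr7:28077158-28077983) was near the average peak, at 0.03 (SE 0.11), with ratios from 0.705 to 1.33 over the 8 pairs. The pair of Zfp36l1 peaks had −0.08 at the stop codon and −0.41 in the CDS.

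At an adjusted p below 0.05, edgeR and DESeq2 called 0 peaks of zinc-finger genes between groups, which does not show that their ratios were equal. In all peaks 1 was called, in Adap-/- LPS against WT LPS (0.0142%), and 0% in the other 3 comparisons. An unadjusted p below 0.05 was found for 11 of 219 zinc-finger peaks with LPS in WT PMs (9 higher, 2 lower), which is 5.02%, against 10.8% of all peaks (340 higher, 423 lower). In Adap-/- PMs there were 25 (23 higher, 2 lower), or 11.4%, near the 11.5% of all peaks (415 higher, 397 lower). Of CDS peaks there, 14 were higher and 1 lower, against 204 and 102 in other genes. Between genotypes there were 11 zinc-finger peaks with LPS (8 higher and 3 lower in Adap-/- PMs), or 5.02% against 7.13% (215 higher, 288 lower), and 0 without LPS, against 2.1%. When a change of over 1 on the log2 scale was also required, LPS gave 6 higher and 2 lower peaks in each genotype. That is 3.65%, against 7.82% of all peaks in WT (2.69% higher and 5.13% lower) and 7% in Adap-/- PMs (2.44% higher and 4.56% lower). In Adap-/- against WT PMs the counts were 4 higher and 3 lower with LPS (3.2%, against 4.14% of all peaks, 1.32% higher and 2.82% lower) and 0 without LPS (against 1.28%, 0.68% higher and 0.595% lower). In Adap-/- PMs the split with LPS was 3 higher and 4 lower when IP and input were scaled separately, which moved the median of all peaks from 0.05 to −0.09. The biological coefficient of variation of the peak fit was 30.6%, against 8.82% for gene input.

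The median log2 change of the ratio with LPS was 0.26 over zinc-finger peaks and 0.10 over all peaks in WT PMs, and 0.24 and 0.05 in Adap-/- PMs. With separate scaling these were 0.15 and −0.01, and 0.09 and −0.09. Leaving out 1 pair of IP and input libraries moved the zinc-finger median to between 0.18 and 0.44 in WT and between 0.11 and 0.29 in Adap-/- PMs. Between genotypes the medians of zinc-finger and all peaks were 0.00 and 0.01 with LPS, and 0.07 and −0.01 without LPS. By region, the medians with LPS in WT PMs were 0.33 against 0.23 in other genes for CDS peaks, 0.18 against 0.06 at stop codons and 0.17 against 0.00 in the 3'UTR. In Adap-/- PMs these were 0.28 against 0.21, 0.16 against 0.03, and −0.02 against −0.08. Start codon peaks, the smallest of these sets, had 0.32 in WT and 0.60 in Adap-/- PMs. Of these 18 peaks, 15 were above 0 in each (83.3%). Other start codon peaks had 0.01 and −0.10, with 51.2% and 44.6% above 0. Peaks share the same libraries and are not replicates.

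A CDS peak of Zfp646 (chr7:127479392-127479817) had ratios of 0.734 and 0.86 in WT mock, 1.97 and 1.56 in WT LPS, 0.742 and 0.661 in Adap-/- mock, and 0.972 and 1.36 in Adap-/- LPS PMs. Both LPS replicates were above both mock replicates in each genotype. The log2 change was 1.14 (SE 0.27, unadjusted p = 0.00157, adjusted p = 0.209, edgeR) in WT and 0.73 (unadjusted p = 0.0194) in Adap-/- PMs, with an input level that fell. The stop codon peak of Zfp646 had 1.17 and 1.32 in WT mock, 0.483 and 0.882 in WT LPS, 0.659 and 0.748 in Adap-/- mock, and 2.25 and 1.67 in Adap-/- LPS PMs, on a mean of 42.9 input reads. It was thus lower with LPS in WT PMs by −0.77 (unadjusted p = 0.191) and higher by 1.46 (SE 0.55, adjusted p = 0.34) in Adap-/- PMs. The stop codon peak of Zbtb42 had 0.483 and 0.345 in WT mock, 0.923 and 0.823 in WT LPS, 0.516 and 0.284 in Adap-/- mock, and 0.887 and 0.87 in Adap-/- LPS PMs. The log2 change was 1.10 in WT and 1.16 (SE 0.40, adjusted p = 0.315) in Adap-/- PMs, with no overlap in either. The latter was 0.72 without Adap-/- mock replicate 2 and 1.57 without replicate 1. A CDS peak of Znf516 changed by 0.66 and 1.03 (adjusted p = 0.235 in Adap-/- PMs), also without overlap.

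Others named by the rule in Adap-/- PMs were CDS peaks of Znf319 (1.26), Znf638 (1.13) and Znf668 (−1.88). In WT PMs these were the shared Zfp82 peak (2.28, on a mean of 11.4 input reads), a CDS peak of Zbtb1 (1.11) and the 2 shared Znf652 peaks (1.56 and 1.28). Each of the latter had its highest ratio in WT LPS replicate 1 (1.05 and 1.16, against 0.486 and 0.529 in replicate 2), which had the most reads on LPS-lowered peaks of the LPS IP libraries. Without that replicate the changes were 0.91 and 0.65. The Zbtb1 peak had 0.614 and 1.35 in WT mock and 2.49 and 1.77 in WT LPS PMs, and its change was 0.67 without WT mock replicate 1 and 1.78 without replicate 2. The Zfp82 peak had 0.716 and 0.9 in WT mock and 5.19 and 3.21 in WT LPS PMs.

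The 7 peaks of Znfx1 had ratios of 1.62 to 2.48 in WT mock replicate 1 and 1.01 to 1.71 in Adap-/- mock replicate 2. In WT mock replicate 2 and Adap-/- mock replicate 1 they lay between 0.395 and 0.833, and in the LPS groups between 0.414 and 0.926. The high pairs are those whose IP libraries had the most reads on LPS-raised peaks among mock IP libraries, and the part of this in the ratios was not tested. The change of a CDS peak of Znfx1 with LPS in WT PMs (chr2:166880712-166880837, −1.46, SE 0.58, adjusted p = 0.391) was −0.65 without WT mock replicate 1 and −2.02 without replicate 2.

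Between genotypes with LPS, the Znf503 stop codon peak had the lowest p of the zinc-finger peaks, with a log2 change of 1.13 (SE 0.31, unadjusted p = 0.00379, adjusted p = 0.447, edgeR). Both Adap-/- LPS ratios were above all 6 others, and the value was 0.87 to 1.45 when 1 library was left out. Its input level did not differ between the LPS groups at an adjusted p below 0.05 (−0.33, adjusted p = 0.155). The Zfp646 stop codon peak had 1.43, and CDS peaks of Znf654, Zbtb42 and Znf592 had 1.04, 0.96 and 0.82. The Znf592 peak had 1.3 and 2.21 in WT LPS and 3.56 and 2.49 in Adap-/- LPS PMs, and its change was 0.45 without WT LPS replicate 1 and 1.22 without replicate 2. Lower in Adap-/- PMs were the shared Znf652 peak (−1.64, and −0.99 without WT LPS replicate 1), a CDS peak of Zbtb4 (−1.25, on a mean of 23.5 input reads) and the peak of the Znf728 pair (−1.81, on a mean of 11 input reads, with ratios of 2.15 and 4.6 in WT LPS and 0.616 and 1.2 in Adap-/- LPS PMs). Without WT LPS replicate 1, 1 peak passed the unadjusted thresholds in place of 7.

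**Figure D5:**
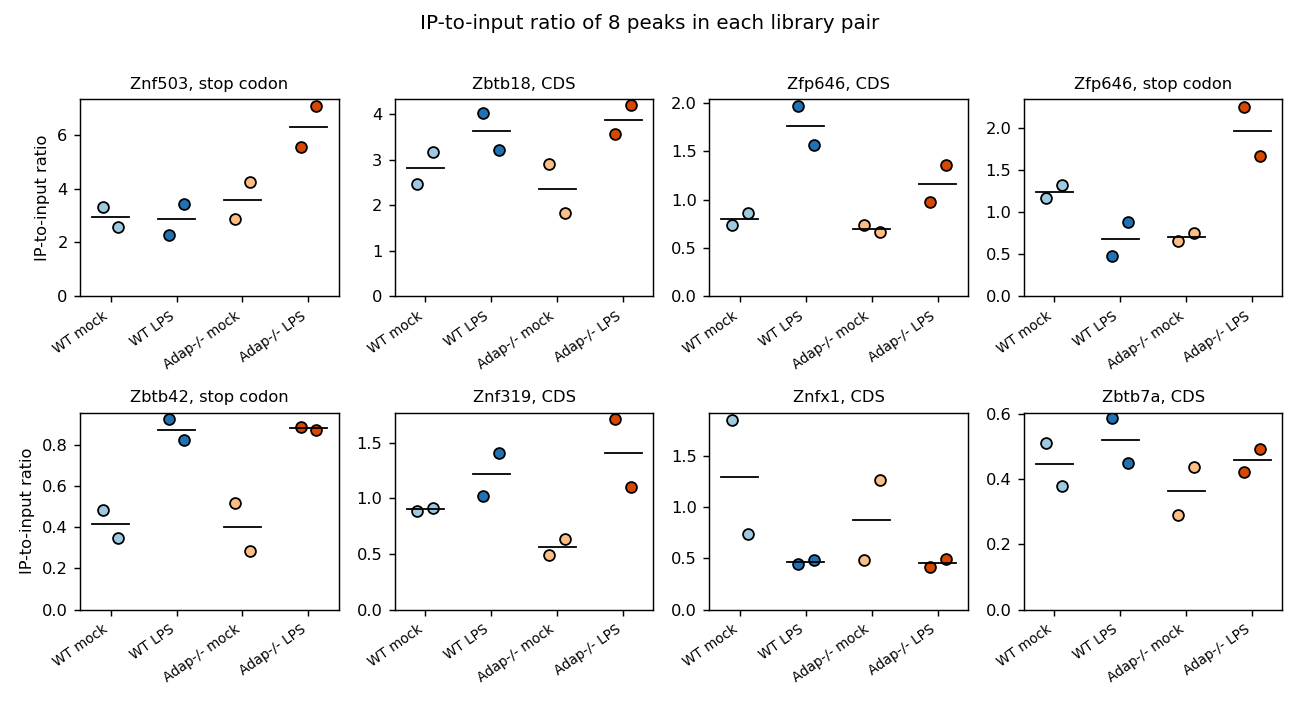
IP-to-input ratio of 8 peaks of zinc-finger genes in each pair of libraries, with 2 points per group and a line at their mean. The Znf503 peak was highest in Adap-/- LPS PMs (5.54 and 7.07), the Zfp646 CDS and Zbtb42 peaks were higher with LPS in both genotypes, and Znfx1 was high in 1 replicate of each mock group.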

How the data were processed

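The authors deposited read counts on merged m6A peaks for 16 libraries, with the gene and region of each peak. The submitters' processing notes name Bowtie2 2.2.8, MACS2 2.1.2, DiffBind 2.8 and the build GRCm39 without roles. Strand handling is not given in the sources used here. These were fitted with edgeR 4.0.16 under R 4.3.3, scaled by TMM and filtered by filterByExpr (count 10, total 15). Its quasi-likelihood test was used, and p-values were adjusted by Benjamini-Hochberg over all genes or peaks. Gene input was the sum of input counts over a gene's peaks, fitted over 8 input libraries, so transcripts without a peak were left out. The table had been assumed to hold genes. The m6A fit used 7058 peaks and 16 libraries, and compared IP over input between groups. Normalized values are TMM-scaled CPM, and 0.5 CPM was added before per-library log2 ratios. DESeq2 1.42.0 was an alternative, beside other scalings, filters, blocks, shared peaks left out and each library left out. The members, role groups, partner lists (KRAB corepressors, BTB partners, ZFP36 decay partners) and marker lists were chosen with earlier results of these data known. A member of the BTB partner list is not reported here. Genes named per comparison were the first 8 higher and 8 lower by log2 fold change among called genes with non-overlapping replicates. Peaks named were the first 5 in each direction with an unadjusted p below 0.05 and a mean of at least 10 input reads, or by ratio over the 4 groups. The Zfp36 genes and Znfx1 were always named. Others were chosen after their values were seen. Reads were not marked before PCR, so errors cover what the counts show. The fits were tested on simulated data. IP and input libraries were paired by the number in their labels, which do not state a shared RNA. The study's methods describe input as a part of the fragmented RNA kept before immunoprecipitation. The correlation of the replicate differences of same-numbered libraries over peaks lay between −0.0969 and 0.0839. For input across groups it lay between −0.0604 and 0.0544. The replicate number was therefore an alternative block only.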

Additional observations from a re-analysis of the deposited data

How the results depend on the processing

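The number of zinc-finger genes called with LPS stayed within 1.5 times under all alternatives run, between 31 and 57 in WT (40 as reported) and between 24 and 50 in Adap-/- PMs (36 as reported). Leaving out 1 library gave 31 to 40 and 24 to 36. Between genotypes with LPS (3 as reported), at least 10 counts in every input library gave 6, peaks annotated to 1 gene alone gave 1, and leaving out 1 library gave 1 (without WT LPS replicate 2) to 6 (without either WT mock replicate). Between genotypes without LPS (8 as reported), DESeq2 and peaks annotated to 1 gene alone each gave 4, and leaving out 1 library gave 2 (without Adap-/- mock replicate 2) to 8. The difference between the LPS responses gave 1 with DESeq2 and 0 under the other alternatives. For the ratio over the 4 groups (105 as reported), TMM within IP and within input libraries gave 171, and leaving out 1 library 81 to 107. With IP and input of 1 culture as a replicate block, peaks past the unadjusted thresholds between genotypes went from 7 to 4 with LPS and from 0 to 2 without LPS, and only the 8 libraries compared gave 1 without LPS. The replicate block changed no other count by over 1.5 times. Leaving out 1 library moved the peaks past the unadjusted thresholds to between 4 and 30 with LPS in WT (30 without WT mock replicate 2), 6 and 19 in Adap-/- PMs (19 without Adap-/- mock replicate 1), 1 and 12 between genotypes with LPS (1 without WT LPS replicate 1, 12 and 11 without an Adap-/- LPS replicate), and 0 and 13 without LPS (13 without Adap-/- mock replicate 1, 12 without WT mock replicate 2). Leave-one-out counts at an adjusted p below 0.05 stayed at 0 in these 4 m6A comparisons. Of 1110 alternative values of named genes and peaks, 1035 kept their direction and side of the threshold, 75 lost the call and none changed direction. Named peaks compared between groups were not called at an adjusted p below 0.05 as reported. They had no call to lose, and their values are among the 1035. The cause of these changes was not tested. With 2 replicates per group and a median of 44.1 input reads on these peaks, ratios of single peaks are imprecise.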
